A study of Mus musculus with 9 samples.

Results

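The genes described here, 10 in number, belong to the contractile apparatus of smooth muscle and myofibroblasts and were measured in engineered mouse skeletal muscle: Acta2, Actg2, Tagln, Tagln2, Cnn1, Cnn2, Myl9, Myh9, Tpm4 and Lmod1. They were taken by gene symbol, and all 10 were found among the 40879 symbols of the count files. Of these, 18619 had a count in at least 1 library. The constructs were made from C2C12, a mouse myoblast line labelled wild type, embedded in matrix derived from muscle tissue, kept for 2 days in growth medium and then for 10 days in differentiation medium with 10% equine serum. Senescence was induced in the irradiated constructs with 20 Gy of X-rays given at once. Cocultured constructs received no radiation themselves and were kept in 1 dish together with an irradiated construct, and only the unirradiated partner was collected. Normal constructs received no radiation, and their count columns are named as cocultures of controls, so that they may also have shared dishes. Each group had 3 libraries, although the series' design text counts 2 each for irradiated and normal constructs, and all constructs come from 1 cell line, which bounds what the groups model.

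In smooth muscle, actin filaments slide on myosin whose regulatory light chain has been phosphorylated, and calponins, transgelins, tropomyosins and leiomodin sit along the thin filament. Fibroblasts that become myofibroblasts take up part of this set, with Acta2 as the usual marker, and myoblasts express some of the same genes while they differentiate. Many of these genes are controlled by serum response factor, SRF, which binds CArG boxes, and by its actin-sensing coactivators, the myocardin-related transcription factors. TEAD factors bind a second promoter element, the MCAT element.

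Promoter sequence from RefSeq (build GRCm38.p6) was held for 8 of the 10 genes. The build named in the submitters' processing notes is GRCm39, so the coordinates below belong to the sequences and not to the count files. The 250 bases before the gene start were searched for the CArG box, for the same box with 1 G or C in its A and T core, and for the MCAT element, written CATTCC, on both strands, and no 2 matches overlapped in these promoters. The CArG box was present in Cnn2 and Myl9, and in 1.47% of 32851 promoters. The form with 1 G or C in the core was present in Acta2, which holds 2, and in Myl9, against 7.24% of promoters. CATTCC was present in Acta2, Tagln2, which holds 2, and Lmod1, against 12.6% of promoters. The promoters of Acta2, Cnn2, Myl9 and Tagln2 are printed 5′ to 3′ with matches in capitals, because they carry the CArG forms or belong to the gene with the smallest p-value below:
Acta2, minus strand, chr19:34255374-34255623: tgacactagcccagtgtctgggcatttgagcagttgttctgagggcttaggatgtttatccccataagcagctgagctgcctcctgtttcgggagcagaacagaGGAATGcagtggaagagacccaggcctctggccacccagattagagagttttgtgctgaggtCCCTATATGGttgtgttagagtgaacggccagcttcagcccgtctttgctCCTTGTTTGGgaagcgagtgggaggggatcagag
Cnn2, plus strand, chr10:79988350-79988599: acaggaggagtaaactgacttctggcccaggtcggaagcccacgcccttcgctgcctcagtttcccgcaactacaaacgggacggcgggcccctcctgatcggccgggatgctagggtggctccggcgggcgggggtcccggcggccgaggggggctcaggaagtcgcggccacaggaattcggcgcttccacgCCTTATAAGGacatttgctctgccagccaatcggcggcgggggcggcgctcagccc
Myl9, plus strand, chr2:156775214-156775463: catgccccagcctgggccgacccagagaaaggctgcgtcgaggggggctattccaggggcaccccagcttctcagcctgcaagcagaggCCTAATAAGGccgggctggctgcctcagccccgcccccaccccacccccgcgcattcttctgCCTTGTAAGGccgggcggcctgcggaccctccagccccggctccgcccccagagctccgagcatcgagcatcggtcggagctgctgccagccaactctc
Tagln2, plus strand, chr1:172499996-172500245: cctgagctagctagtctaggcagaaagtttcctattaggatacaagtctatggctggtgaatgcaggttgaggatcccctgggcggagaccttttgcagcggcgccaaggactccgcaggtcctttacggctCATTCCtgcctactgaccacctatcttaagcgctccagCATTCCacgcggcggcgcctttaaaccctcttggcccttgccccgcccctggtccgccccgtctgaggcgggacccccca
In the Acta2 promoter the capitals mark GGAATG, the reverse complement of CATTCC, then the CArG forms CCCTATATGG and CCTTGTTTGG, which begin 84 and 34 bases before the gene start. Cnn2 holds CCTTATAAGG and Myl9 holds CCTAATAAGG followed by the form CCTTGTAAGG. None of the 3 motifs was found in the windows of Cnn1, Myh9 and Tpm4, and a match describes letters only.

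Library totals ran from 6485655 to 8290468 counts in irradiated, from 7506605 to 8035763 in cocultured and from 4840993 to 6607557 in normal constructs. The libraries irradiated 1 and normal 3 stood apart within their groups, with 12.5% and 16.3% of counts on 22 sarcomere genes, compared with 1.14% to 2.93% in the other 7. Normalised CPM, counts scaled to a common library size, use library totals corrected by TMM, a method that trims the most extreme genes, and these factors ran from 0.728 to 1.29 in irradiated, from 1.18 to 1.21 in cocultured and from 0.556 to 0.973 in normal libraries. Genes with a count numbered 11126, 8306 and 8654 in irradiated 1, 2 and 3, compared with 10002 to 11851 in cocultured and 11329 to 14159 in normal libraries. In bulk RNA, fewer cells that express a gene and less RNA per cell cannot be told apart. Because these are 3' end libraries, CPM was not divided by transcript length, and levels are compared between groups for 1 gene and not between genes.

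Acta2 encodes smooth muscle alpha-actin. It had 529, 355 and 405 normalised CPM in irradiated constructs, 479, 425 and 243 in cocultured constructs and 245, 394 and 339 in normal constructs. The groups overlapped, and the lowest value was a cocultured library and the highest an irradiated one. The means were 430 ± 89.6 CPM in irradiated, 383 ± 124 in cocultured and 326 ± 75.3 in normal constructs (SD, n = 3 each), an order whose neighbours differ by less than their SD. The log2 fold change of irradiated against normal constructs was 0.40 ± 0.34 (SE) with an edgeR adjusted p = 0.994, and that of cocultured against normal was 0.23 ± 0.34 with an edgeR adjusted p = 1. Without TMM, on library totals, the 3 irradiated libraries (383, 455 and 503 CPM) all lay above the 3 normal ones (236, 358 and 187 CPM), and the log2 value was 0.77 (edgeR adjusted p = 0.582). That scaling also raised the median log2 of all tested genes for irradiated against normal constructs, by 0.35.

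Actg2 encodes the gamma-actin of enteric smooth muscle. It had 4, 0 and 0 read counts in irradiated constructs, 135, 54 and 14 in cocultured constructs and 91, 11 and 18 in normal constructs. All irradiated libraries lay below all others, while cocultured and normal libraries overlapped. The fitted log2 fold change was -4.92 ± 2.91 for irradiated against normal and -4.65 ± 2.87 for irradiated against cocultured constructs, with edgeR adjusted p-values of 0.673 and 0.647, so neither passed. Irradiated 2 and 3, where Actg2 was at 0, are the 2 libraries with the fewest genes detected, and the part of this in the difference was not tested. Without irradiated 1 the irradiated group is all at 0 and the fitted values, -9.03 and -8.76, are no measure of size. They were -3.68 without normal 1, against normal, and -3.63 without cocultured 1, against cocultured constructs.

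**Figure D1:**
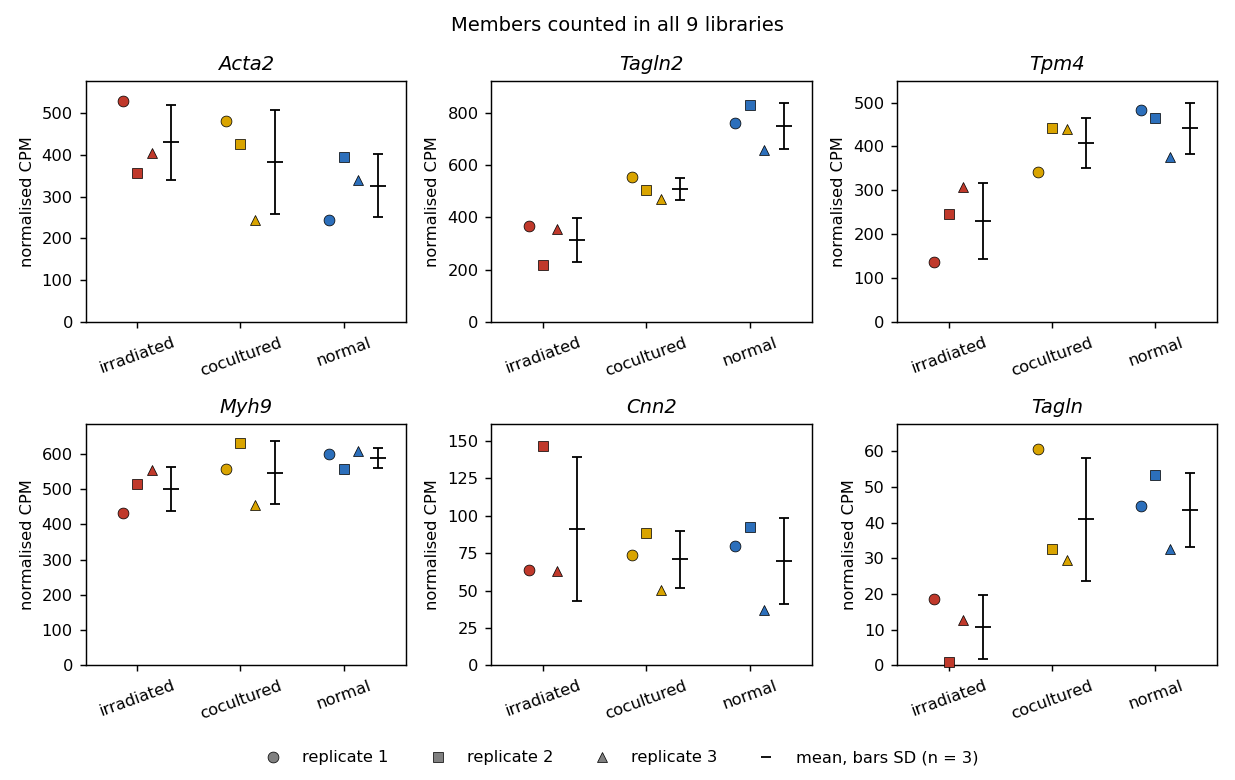
Normalised CPM per library (vertical axes from 0) of the 6 genes counted in all 9 libraries, for irradiated, cocultured and normal constructs. Symbols mark replicates and the bars to the right give mean and SD (n = 3). Tagln2 shows 3 separate levels, at 218 to 368 CPM in irradiated, 471 to 554 in cocultured and 658 to 831 in normal constructs, while Acta2, Myh9 and Cnn2 overlap between at least 2 groups.

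Tagln2, a widely expressed relative of the smooth muscle protein transgelin, differed most by the test. Its levels were 368, 218 and 355 normalised CPM in irradiated constructs, 554, 505 and 471 in cocultured constructs and 762, 831 and 658 in normal constructs. The 3 groups did not overlap, and the cocultured libraries lay between the others. The means were 313 ± 83.0, 510 ± 41.9 and 750 ± 87.6 CPM in irradiated, cocultured and normal constructs (SD, n = 3 each). The log2 fold change was -1.26 ± 0.31 for irradiated against normal, a level 0.418 times that of normal constructs, with an unadjusted p = 0.00130 that ranked 86 among 11980 genes and an edgeR adjusted p = 0.182. DESeq2 and limma voom, at adjusted p = 0.00137 and 0.0289, placed Tagln2 past the threshold of 0.05, as they did 667 of 18619 and 25 of 11980 genes, and over 18 alternatives the adjusted p ran from 0.00137 to 0.680. The log2 values were -0.70 ± 0.31 for irradiated against cocultured and -0.56 ± 0.30 for cocultured against normal constructs, with edgeR adjusted p-values of 0.493 and 1.

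On library totals the order was less clear for Tagln2. It had 266, 279 and 441 CPM in irradiated constructs, against 735, 756 and 364 CPM in normal ones, so that irradiated 3 lay above normal 3. The cocultured libraries had 664, 608 and 555 CPM. That scaling raised the median log2 of all tested genes by 0.35 for irradiated against normal, by 0.55 for cocultured against normal, and changed it by -0.18 for irradiated against cocultured constructs. There the Tagln2 log2 value was -0.92 for irradiated against normal, -0.89 for irradiated against cocultured and -0.029 for cocultured against normal constructs, so that the intermediate cocultured level was not seen on library totals.

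Tagln encodes transgelin itself, an actin-binding protein used as an early smooth muscle marker. Its levels were 18.7, 0.940 and 12.7 normalised CPM in irradiated constructs, 60.7, 32.7 and 29.5 in cocultured constructs and 44.6, 53.4 and 32.6 in normal constructs. Every irradiated library lay below every other library, also on library totals, and the cocultured and normal libraries overlapped. The means were 10.8 ± 9.05, 41.0 ± 17.2 and 43.5 ± 10.5 CPM in irradiated, cocultured and normal constructs (SD, n = 3 each). In the fit, the log2 fold change was -2.02 ± 1.03 against normal and -1.93 ± 1.03 against cocultured constructs (edgeR adjusted p = 0.525 and 0.523), and neither passed. Against normal it was -1.47 without irradiated 2, which held 10 counts. A band of genes was set at 20 to 50 CPM on library totals, on average over the cocultured and normal libraries. In it, 5.50%, 20.8% and 17.3% of genes were at 0 in irradiated 1, 2 and 3. The share was 0.235% to 3.12% in cocultured and 0.101% to 3.93% in normal libraries. The part of this in the Tagln values was not tested. In the GENCODE M21 annotation Tagln overlaps Pcsk7 on the opposite strand, and the strand setting of the counting is not given in the sources used here. Pcsk7 had 1, 0 and 0 counts in irradiated, 62, 486 and 0 in cocultured and 29, 30 and 77 in normal constructs, and its part in the Tagln counts was not tested.

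Cnn1, the calponin of differentiated smooth muscle, was close to undetected. It had no count in the irradiated libraries, 58, 0 and 0 counts in cocultured and 16, 0 and 0 counts in normal constructs, and was the 1 gene of the 10 that did not enter the test. The irradiated group was given a floor of 3 counts, or 0.126 CPM. The pooled cocultured level was 16.6-fold this floor and the pooled normal level 9.84-fold. Counting error enters through the floor alone and not through the 58 and 16 counts, so these are no strict bounds. Both values rest on 1 library each, since the other 2 of either group were also at 0. Cnn2, the calponin of many other cells, had 63.5, 146 and 63.2 normalised CPM in irradiated, 73.8, 88.2 and 50.5 in cocultured and 79.5, 92.5 and 37.2 in normal constructs. The groups overlapped, irradiated 2 held the highest value, and the log2 fold change of 0.38 ± 0.53 for irradiated against normal (edgeR adjusted p = 1) was -0.14 without that library.

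Myh9 encodes the heavy chain of nonmuscle myosin IIA, and Myl9 a regulatory light chain of smooth muscle and nonmuscle myosin. Myh9 had 431, 514 and 555 normalised CPM in irradiated, 557, 629 and 454 in cocultured and 600, 557 and 607 in normal constructs. Its irradiated libraries lay below the normal ones by a narrow margin, 555 against 557 CPM at the nearest, and the cocultured range held all 3 normal libraries and irradiated 2 and 3. The log2 fold change was -0.23 ± 0.28 for irradiated against normal and -0.11 ± 0.28 for cocultured against normal constructs (edgeR adjusted p = 1 for both), and on library totals the signs turned, to 0.22 and 0.46. Myl9 was erratic, with 297, 144 and 0 counts in irradiated, 222, 0 and 0 in cocultured and 0, 43 and 84 in normal constructs. Each group had at least 1 library at 0, so no order can be read. The log2 fold change of Myl9 was 1.23 ± 2.64 for irradiated against normal (edgeR adjusted p = 1) and -0.68 without irradiated 1.

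Tpm4 is a tropomyosin of nonmuscle and smooth muscle actin filaments. Its levels were 138, 245 and 309 normalised CPM in irradiated constructs, 341, 441 and 440 in cocultured constructs and 484, 466 and 375 in normal constructs. The irradiated libraries lay below all 6 others, and the cocultured and normal libraries overlapped. Means were 231 ± 86.2, 408 ± 57.6 and 442 ± 58.2 CPM in irradiated, cocultured and normal constructs (SD, n = 3 each). For irradiated constructs the log2 fold change was -0.94 ± 0.34 against normal (unadjusted p = 0.0162, edgeR adjusted p = 0.483) and -0.82 ± 0.34 against cocultured constructs (unadjusted p = 0.0306, edgeR adjusted p = 0.493). Against normal it was -0.47 on library totals, where irradiated 2 and 3 (314 and 383 CPM) lay above normal 3 (207 CPM).

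Lmod1 encodes leiomodin 1, which nucleates actin filaments in smooth muscle. It had 219, 0 and 117 counts in irradiated, 97, 6 and 0 in cocultured and 51, 7 and 30 in normal constructs. A library of each of the irradiated and cocultured groups was at 0, and the groups overlapped. The log2 fold change for irradiated against normal was 1.57 ± 2.47 (edgeR adjusted p = 1) and 0.024 without irradiated 1. Such gaps were common at this level: of 5624 genes tested at a mean of 2 to 20 normalised CPM, 92.1% had a library at 0, and of 622 genes at 200 CPM or more, 0.804% did.

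**Figure D2:**
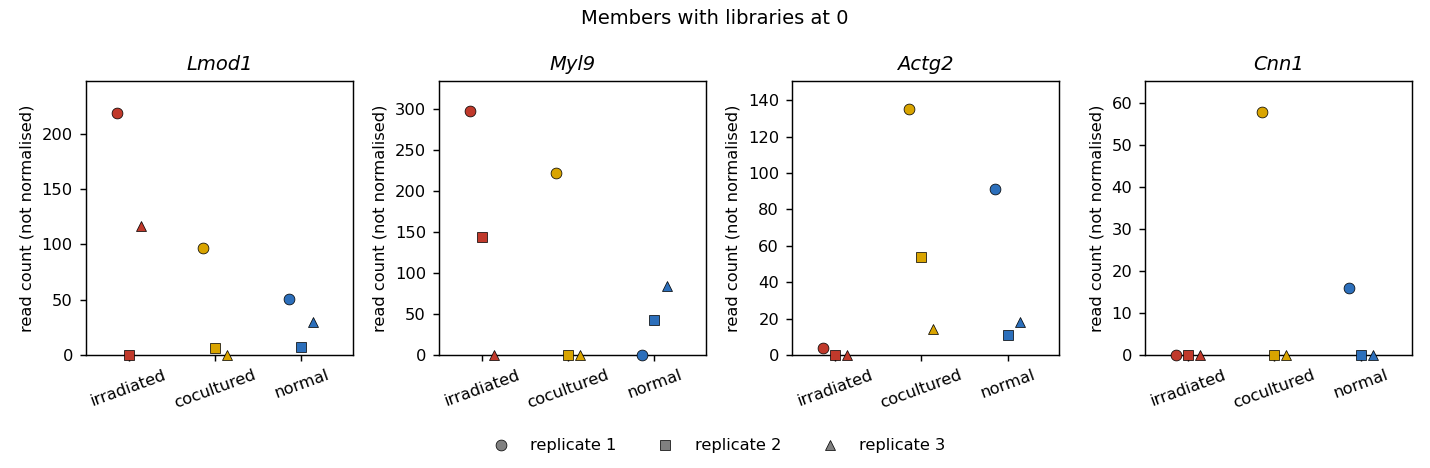
Read counts per library, not normalised, of the 4 genes with libraries at 0, for irradiated, cocultured and normal constructs (symbols mark replicates, vertical axes from 0). Cnn1 was counted in 1 cocultured and 1 normal library, and Actg2 was at 4, 0 and 0 in the irradiated libraries.

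The comparison of irradiated with normal constructs asks what 20 Gy and the induced senescence leave changed. None of the 9 tested genes was called at an edgeR adjusted p under 0.05, where 0.0584% of 11980 genes were called, 0.00835% higher and 0.0501% lower. At an unadjusted p under 0.05, Tagln2 and Tpm4 were lower and none was higher, where 10.3% of all genes were past it, 8.7% lower and 1.59% higher. In 5 of the 9, namely Tagln2, Tagln, Tpm4, Actg2 and Myh9, all irradiated libraries lay below all normal ones, compared with 11.8% over all tested genes, and none lay wholly above, compared with 3.94% over all (15.7% in either direction). On library totals Tagln and Actg2, 2 of these 5, lay wholly below, against 8.18% of all genes, and Acta2 lay wholly above, against 5.37%. The median log2 of the 9 was -0.23, close to -0.21 over all tested genes. Irradiated 2 and 3 had the fewest genes detected, and normal 3 and irradiated 1 had the lowest scaling factors. The part of either in these values was not tested.

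Set against cocultured constructs, which shared a dish with irradiated ones, none of the 9 was called (0.0334% of all genes), and 4, Tagln2, Tagln, Tpm4 and Actg2, lay wholly below in irradiated constructs, against 10.6% of all genes, and none wholly above, against 3.9% (14.5% in either direction). These 4 also lay wholly below on library totals, against 12.8% of all genes, and none lay wholly above, against 2.19%. Tagln2 and Tpm4 again had an unadjusted p under 0.05 and none was higher at that level, where 9.58% of all genes were past it, 7.33% lower and 2.25% higher. The median log2 was -0.13 for the 9 and -0.10 for all genes. Both comparisons use the same irradiated libraries.

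The comparison of cocultured with normal constructs asks what sharing a dish with an irradiated construct does. In edgeR none of the 9 was called, and 0% of all tested genes were; at an unadjusted p under 0.05 there were 0 of the 9 and 492 of all genes, 4.11%, of which 0.851% were higher and 3.26% lower, while DESeq2 called 134 genes and limma voom 0, with none of the 9 among them. Tagln2 was the 1 gene whose cocultured libraries all lay below the normal ones, as in 7.51% of all genes, and none lay wholly above, as in 5.66% (13.2% in either direction). On library totals none lay apart in either direction, where 3.57% of all genes lay wholly below and 15.6% wholly above. The median log2 was -0.12 for the 9 and -0.07 for all genes. The summed level of the 10 genes was 1658, 1493 and 1712 normalised CPM in irradiated, 2120, 2128 and 1690 in cocultured and 2247, 2408 and 2085 in normal constructs. Tagln2, Tpm4, Acta2 and Myh9 make up most of these sums.

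**Figure D3:**
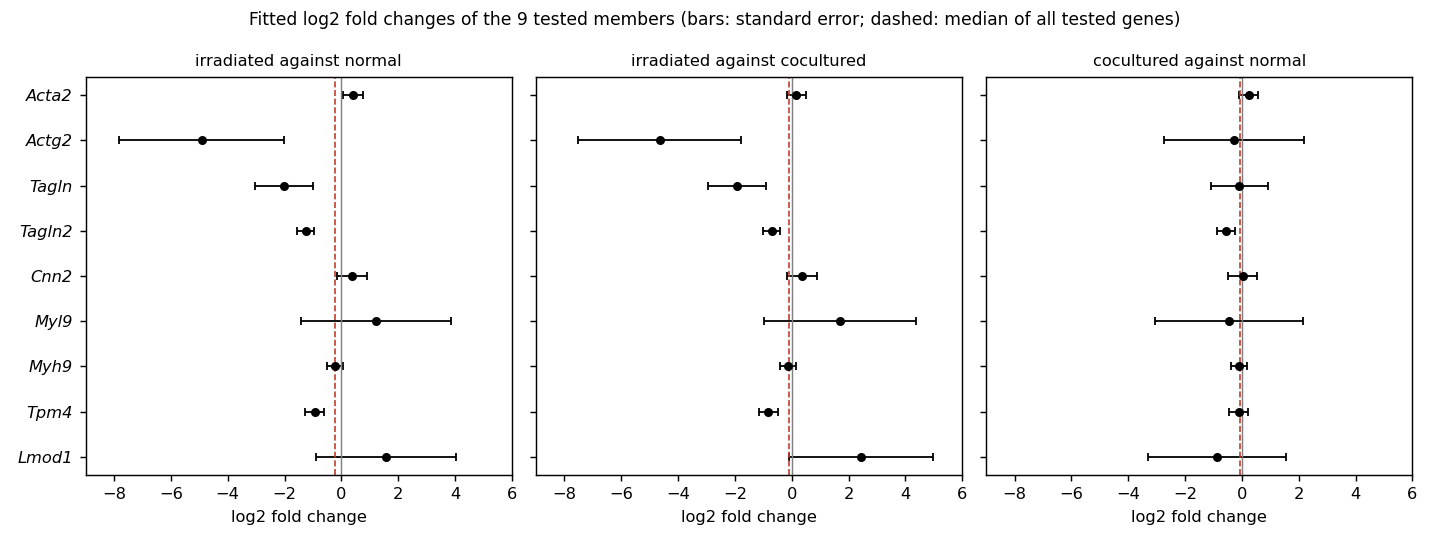
Fitted log2 fold changes (horizontal axes) of the 9 tested genes in the 3 comparisons, with bars of 1 standard error and a dashed line at the median of all 11980 tested genes. For irradiated against normal constructs, Tagln2 at -1.26 and Tpm4 at -0.94 have short bars, while Actg2, Myl9 and Lmod1 have bars of 2.47 to 2.91 log2 units to either side.

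**Figure D4:**
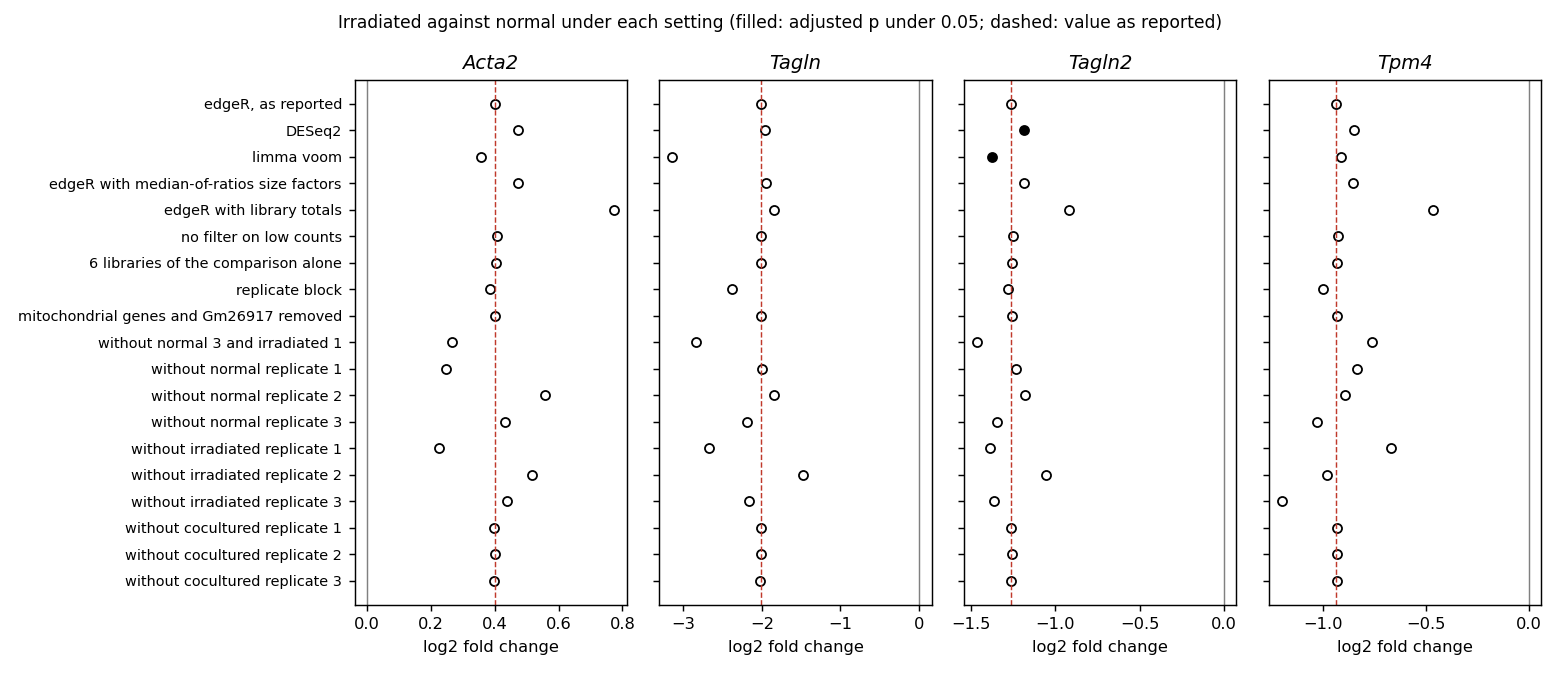
Log2 fold change of irradiated against normal constructs (horizontal axes) for Acta2, Tagln, Tagln2 and Tpm4 under each setting (rows), filled where the adjusted p was under 0.05. All 4 keep their sign in every row, and the 2 filled points are Tagln2 with DESeq2 and with limma voom. Rows that omit a cocultured library nearly repeat the reported log2 values.

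Ratios of 2 counts within a library need no scaling factor. The pairs of Acta2, Tagln2, Tpm4 and Myh9 give 6 ratios, which were chosen after the levels were seen and are descriptions with no test. Acta2 counts per Tagln2 count were 1.44, 1.63 and 1.14 in irradiated, 0.865, 0.840 and 0.517 in cocultured and 0.321, 0.473 and 0.515 in normal constructs. The irradiated libraries lay above the cocultured ones, and these just above the normal ones. Tagln2 counts per Myh9 count were 0.853, 0.424 and 0.640 in irradiated, 0.995, 0.803 and 1.04 in cocultured and 1.27, 1.49 and 1.08 in normal constructs, so that irradiated and cocultured libraries overlapped. Tpm4 counts per Myh9 count averaged 0.451 ± 0.120 in irradiated, 0.761 ± 0.185 in cocultured and 0.753 ± 0.119 in normal constructs (SD, n = 3 each). The irradiated Tpm4 ratios all lay below the others. Acta2 counts per Tpm4 count were 3.83, 1.45 and 1.31 in irradiated, 1.41, 0.962 and 0.553 in cocultured and 0.506, 0.845 and 0.903 in normal constructs, with irradiated above normal libraries. Irradiated and normal libraries overlapped in the other ratios, Acta2 per Myh9 (0.691 to 1.23 in irradiated and 0.408 to 0.707 in normal) and Tagln2 per Tpm4 (0.888 to 2.66 in irradiated and 1.58 to 1.78 in normal). A ratio shows unequal change of 2 genes and not which of them changed.

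**Figure D5:**
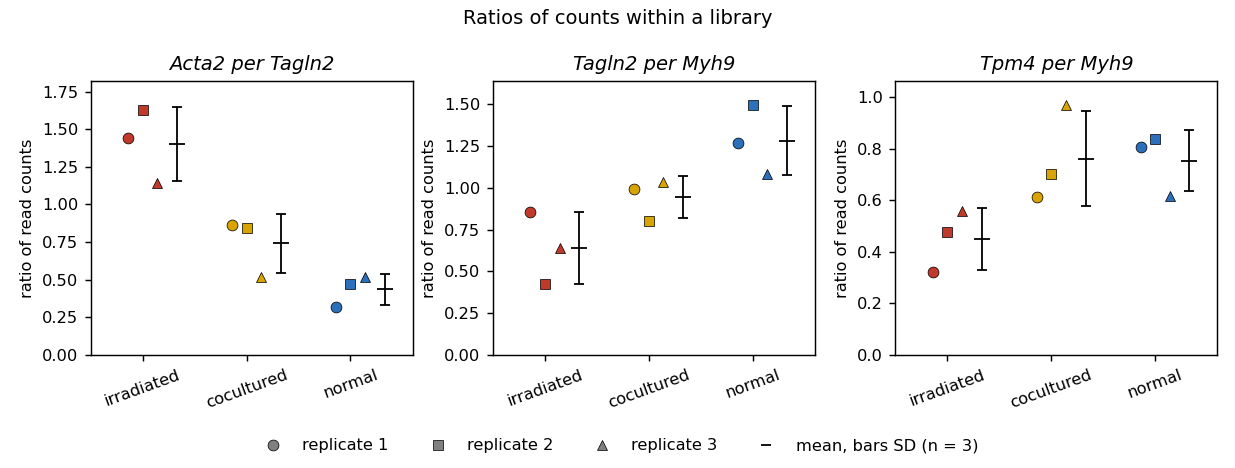
Ratios of read counts within each library (vertical axes from 0) for irradiated, cocultured and normal constructs, with symbols for replicates and bars for mean and SD (n = 3). Acta2 per Tagln2 lies between 1.14 and 1.63 in irradiated constructs, and between 0.321 and 0.515 in normal ones.

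Further lists of contractile and myofibroblast genes, 5 in all, held no gene past the threshold in any of the 3 comparisons by edgeR. Over all tested genes, 41.8% had a positive log2 value for irradiated against normal, 46.9% for cocultured against normal and 46.7% for irradiated against cocultured constructs, and the medians were -0.21, -0.07 and -0.10 in that order. Of 21 tested genes in the smooth muscle contractile list, 8 were positive for irradiated against normal constructs (median log2 -0.29), 7 for cocultured against normal (-0.39) and 13 for irradiated against cocultured (0.30). Some of them were highest in irradiated 1 and normal 3, such as Tpm1 (19748 and 35688 CPM) and Lmod2 (337 and 423 CPM). Others, such as Csrp1 and Hspb1, were not, and the part of these libraries in the counts and medians was not tested. For irradiated against normal constructs, the listed genes with the smallest p were the LIM proteins Csrp1, at 74.7, 20.5 and 18.4 normalised CPM in irradiated and 133, 174 and 123 in normal ones (log2 -1.92 ± 0.54, edgeR adjusted p = 0.295), and Csrp2 (log2 -2.45 ± 0.94, edgeR adjusted p = 0.483). Csrp1 libraries of the 2 groups did not overlap, where 11.8% of all tested genes lay wholly below. Genes named for a small p tend to have groups that lie apart, so their separation is no further result. The small heat shock protein gene Hspb1 had 202, 207 and 242 CPM in irradiated and 476, 473 and 524 in cocultured constructs (log2 -1.18 ± 0.34, edgeR adjusted p = 0.412). It lay wholly below in irradiated constructs, as did 10.6% of all tested genes. Among genes of cocultured against normal constructs, Npnt, which encodes the matrix protein nephronectin, had log2 1.02 ± 0.38 and the tropomyosin Tpm1 log2 -2.78 ± 1.20 (edgeR adjusted p = 1 for both), where normal 3 held 35688 CPM of Tpm1 and the other 2 normal libraries 1132 and 1670.

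The list of SRF and its pathway had 24 tested genes, of which 7 were positive for irradiated against normal constructs (median log2 -0.58), 12 for cocultured against normal (median -0.00057) and 5 for irradiated against cocultured (-0.66). Srf itself averaged 67.7 ± 20.7, 44.0 ± 9.96 and 60.8 ± 13.8 normalised CPM in irradiated, cocultured and normal constructs (SD, n = 3 each). Its coactivator gene Mrtfa had 45.8, 0 and 0 CPM in irradiated, 46.6, 9.62 and 23.4 in cocultured and 19.3, 23.9 and 23.0 in normal constructs. Its relative Mrtfb had 83.5, 1.97 and 27.9 CPM in irradiated, 26.5, 49.4 and 69.2 in cocultured and 45.8, 33.4 and 60.5 in normal constructs. Irradiated 2 and 3, where Mrtfa was at 0, had the fewest genes detected, and the part of this was not tested. Myocd, the smooth muscle coactivator gene, had no count in any library. Ccn2, a matricellular target of the pathway, had 15.5, 62.3 and 64.6 CPM in irradiated, 199, 277 and 188 in cocultured and 233, 195 and 105 in normal constructs. The irradiated libraries lay below all others, with log2 -1.90 ± 0.52 against normal (edgeR adjusted p = 0.267) and -2.22 ± 0.52 against cocultured constructs (edgeR adjusted p = 0.255). Over all tested genes, irradiated libraries lay wholly below normal ones in 11.8% and wholly below cocultured ones in 10.6%. Rock2, a kinase that keeps the light chain phosphorylated, had 342, 374 and 315 CPM in irradiated and 712, 536 and 588 in normal ones (log2 -0.83 ± 0.30, edgeR adjusted p = 0.483).
The actin-severing gene Cfl1 (log2 1.04 ± 0.45) and the muscle ankyrin repeat gene Ankrd1 (log2 1.01 ± 0.44) had the smallest p of this list for cocultured against normal constructs, both at an edgeR adjusted p = 1, and Ankrd1 had log2 -1.14 ± 0.44 for irradiated against cocultured (edgeR adjusted p = 0.493).

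Of 17 tested genes of nonmuscle myosin and light chain control, 1 was positive for irradiated against normal constructs (median log2 -0.57), 9 for cocultured against normal (0.010) and 6 for irradiated against cocultured (-0.65). The smallest p belonged to Rock2, which is also in this list, and to its relative Rock1, with log2 -0.60 ± 0.31 (edgeR adjusted p = 0.535). Against cocultured constructs, the light chain gene Myl12b had 40.7, 9.69 and 40.7 CPM in irradiated and 95.9, 110 and 108 in cocultured constructs (log2 -1.78 ± 0.60), and Mylk, the light chain kinase gene, 132, 216 and 155 CPM in irradiated and 97.3, 97.8 and 62.7 in cocultured constructs (log2 0.96 ± 0.37, edgeR adjusted p = 0.493 for both). Neither overlapped, and they lay in opposite directions. Of all tested genes, 10.6% lay wholly below and 3.9% wholly above in this comparison. For cocultured against normal constructs the smallest p of the list were those of Dapk1, at 0 counts in cocultured and 102 in normal libraries, and of Myl12b (log2 0.78 ± 0.58, edgeR adjusted p = 1).

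Of 18 tested tropomyosins, actins and filament caps, 7 were positive for irradiated against normal constructs (median log2 -0.27), 2 for cocultured against normal (-0.41) and 12 for irradiated against cocultured (0.49). Some of them were highest in irradiated 1 and normal 3, such as Acta1 (18614 and 33319 CPM) and Tmod4 (204 and 134 CPM). Others, such as Actb and Capzb, were not, and the part of these libraries in the counts and medians was not tested. Capzb, a filament capping subunit, had log2 -0.92 ± 0.35 and -0.80 ± 0.35 for irradiated against normal and cocultured constructs (edgeR adjusted p = 0.483 and 0.493), and Actb, the main cytoplasmic actin, -0.66 ± 0.33 for both (edgeR adjusted p = 0.511 and 0.496). Actb averaged 2709 ± 442 CPM in irradiated, 4275 ± 249 in cocultured and 4286 ± 650 in normal constructs (SD, n = 3 each), and its irradiated libraries lay below all others. Over all tested genes, 11.8% lay wholly below normal and 10.6% wholly below cocultured libraries. Acta1, the skeletal actin, had log2 -2.41 ± 1.07 for cocultured against normal constructs (edgeR adjusted p = 1), where normal 3 held 33319 CPM. Of 18 myofibroblast matrix genes, 5 were positive for irradiated against normal constructs (median log2 -0.38), 9 for cocultured against normal (-0.029) and 5 for irradiated against cocultured (-0.48). Ccn2, described above, is also in this list. Tnc, the matrix protein tenascin C, had 47.5, 53.4 and 17.7 CPM in irradiated and 118, 160 and 123 in normal ones (log2 -1.76 ± 0.49, edgeR adjusted p = 0.287). Fbn1, a microfibril protein, had log2 -1.13 ± 0.38 for irradiated against cocultured constructs (edgeR adjusted p = 0.493). For cocultured against normal constructs, Thbs1, or thrombospondin 1, had log2 -1.68 ± 0.70 and the crosslinking enzyme Lox 0.60 ± 0.33 (edgeR adjusted p = 1 for both).

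Likeness of pattern was measured by Pearson's r of log2 CPM over the 9 libraries, among 3121 genes with at least 50 CPM on average, as a description over points that share groups and scaling. The genes nearest to Acta2 were Nenf (r = 0.93), Hes6 (0.92) and Ahnak (0.88). Those nearest to Tagln were H1f4 (0.98), Ndrg1 (0.98) and Arhgap29 (0.97), and H1f4 and Arhgap29 were at 0 in irradiated 2, where Tagln was lowest. Those nearest to Tpm4 were Lamc1 (0.99), Gsto1 (0.97) and Fosl2 (0.96). Among the 9 genes themselves, Tagln and Tagln2 had the highest r, 0.89, and Acta2 and Tpm4 the lowest, -0.60. Acta2 had r between -0.24 and -0.02 with Tagln, Tagln2, Actg2 and Myh9.

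The labelled cell type was checked against its markers. All 14 skeletal myoblast and myotube markers had counts in some library, among them Myod1, Myog and Des in every library. Myf5 had 0, 0 and 0 counts in irradiated, 27, 116 and 283 in cocultured and 53, 88 and 7 in normal constructs. Cdh15 was at 0 in irradiated 3. The 14 markers summed to 7842 to 49673 normalised CPM in irradiated, 4723 to 9214 in cocultured and 5153 to 79163 in normal constructs. For vascular smooth muscle and pericytes, 9 markers other than Des and Cnn1 summed to 80.5 to 184 normalised CPM in irradiated, 109 to 176 in cocultured and 136 to 360 in normal constructs, and 8 of the 9 had a count in some library. Myocd was at 0 in all 9. Myh11, the heavy chain of smooth muscle myosin, had 62, 1 and 0 counts in irradiated, 40, 0 and 2 in cocultured and 0, 8 and 195 in normal constructs, so that it was highest in normal 3 and irradiated 1, the libraries with the largest sarcomere share. Rgs5, a pericyte marker, had its most counts in the same 2 libraries, 301 in irradiated 1 and 370 in normal 3, and so had Abcc9, with 288 and 164. The other counted markers did not follow these libraries. Pdgfrb was highest in irradiated 3 (1252 counts) and Notch3 in cocultured 2 (902). Cspg4 and Mcam were highest in cocultured 3 (320 and 91), and Kcnj8 had 66 counts in normal 1 and 64 in normal 3. Endothelial markers summed to at most 36.2 CPM in any library, and macrophage markers to 1.29 to 22.8 CPM in irradiated, 16.9 to 169 in cocultured and 107 to 456 in normal constructs. Most of the cocultured and normal sums is 1 gene, Cd14, at 16.8, 135 and 169 CPM in cocultured and 448, 94.5 and 135 in normal constructs. Ptprc and Lyz2 had 1 and 2 counts over all libraries, and Adgre1 was counted in normal 2 alone. Fibroblast markers summed to 5758 to 9230, 7533 to 11089 and 7274 to 12226 CPM in irradiated, cocultured and normal constructs, with Tcf21 at 0. Most of each sum is 1 gene, Dcn. It had 4731, 7231 and 7090 CPM in irradiated, 6069, 8223 and 10137 in cocultured and 10960, 6015 and 7116 in normal constructs. The part of these markers in the values above was not tested.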

How the data were processed

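Each of the 9 libraries holds RNA of 1 construct. The QuantSeq 3' FWD kit was used on 100 ng of RNA and sequencing was single-end with a length of 75 bp on an Illumina NextSeq instrument, per the labels' protocols. No molecular identifiers are stated. The tools FastQC, STAR and HTSeq appear, with no version, in the submitters' processing notes, as do the build names mm39 and GRCm39. Which annotation and strand setting were used, and whether duplicates were removed, is not given in the sources used here.

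The authors deposited whole-number counts per gene symbol, not normalized, 1 column per library, per the file headers. Column numbers run 1 above the label numbers, and the columns of the normal libraries are named as cocultures of controls. Each file's sample was taken from the series' own record, and groups and replicates from the titles. Since 2 constructs were kept per dish, per the series' design text, irradiated libraries may be dish partners, and so may normal ones. Separate cultures are not stated beyond this, so a p-value here reflects how much these samples vary, which may be partly technical. No 2 libraries were identical, and within-group Spearman correlations across genes were 0.63 to 0.84.

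Genes were tested with edgeR 4.0.16 in R 4.3.3. After filterByExpr, which kept 11980 genes, and TMM scaling, the 9 libraries entered 1 quasi-likelihood fit by group. The common biological coefficient of variation was 1.32. P-values were adjusted over all tested genes by Benjamini-Hochberg, with 0.05 as the threshold, also for DESeq2 1.42.0 and limma 3.58.1. Approximate standard errors were derived from each log2 fold change and its F statistic. Alternatives covered DESeq2 and limma voom, other scalings, no filter on low counts, fits to only the 6 libraries compared, a replicate block, abundant RNAs removed and each library left out.

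The genes, the lists and the tests were chosen with earlier results of these data known. Named are all 10 genes; from each list, in each comparison, genes past the threshold or otherwise the 2 with the smallest p; and the 3 genes most like Acta2, Tagln and Tpm4. Other genes, such as Srf and its coactivators, were added after their values were seen. Counting intervals and floors take reads as independent molecules.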

Additional observations from a re-analysis of the deposited data

How the results depend on the processing

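Over 486 alternative values of the 9 tested genes, 454 kept the direction and the side of the threshold, 30 changed sign and 2 passed it, both Tagln2 for irradiated against normal constructs, so that DESeq2 called 1 of the 10 genes, all of which it fitted, and limma voom 1 of 9. DESeq2 called 667 of 18619 genes there and limma voom 25 of 11980. In all other settings, comparisons and omissions of 1 library, 0 of the 9 were called. The signs of Acta2, Actg2, Tagln, Tagln2 and Tpm4 for irradiated against normal constructs held in all 18 alternatives. The 486 values and these 18 include fits that omit a library outside the comparison, which nearly repeat the reported log2 values. Without cocultured 1, 2 and 3, Acta2 was 0.399, 0.400 and 0.399, compared with 0.399 as reported.

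Over all genes, irradiated against normal constructs gave 7 calls, and 130 with no filter, 0 in the 6 libraries alone, and 20 without both normal 3 and irradiated 1. Leaving out 1 library gave 6 to 147, with 147 without irradiated 1, 13 without irradiated 2, 17 without irradiated 3 and 14 without normal 2. Cocultured against normal gave 0, and 134 with DESeq2, 52 with no filter and 1 without both libraries. Irradiated against cocultured gave 4, and 635 with DESeq2, 105 with limma voom, 9 on library totals, 153 with no filter, 0 in the 6 libraries alone and 21 without both libraries. Leaving out 1 library gave 1 to 97, with 97 without irradiated 1, 11 without irradiated 2, 13 without irradiated 3, 8 without cocultured 1, 2 without cocultured 3, 7 without normal 2 and 1 each without normal 1 or normal 3. The cause was not tested.

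With the replicate number as a block, irradiated against normal gave 23 calls and irradiated against cocultured 12, and Myl9 turned to -2.22 for irradiated against normal. Same-numbered libraries had correlations of their deviations from group means of -0.12 to 0.08 over 9 pairs. With means of 3 libraries each, these correlations cannot decide whether same-numbered libraries share a dish, day or batch.

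Sign changes were these. For irradiated against normal, Lmod1 was -1.06 with limma voom and Myh9 0.22 on library totals; omissions gave -0.68 to 2.38 for Myl9 and -0.14 to 0.64 for Cnn2. For cocultured against normal on library totals, Actg2 was 0.16, Tagln 0.42, Myl9 0.39, Myh9 0.46 and Tpm4 0.40; without both libraries Cnn2 was -0.28 and Myl9 0.73; omissions gave -1.27 to 0.99 for Actg2, -0.48 to 0.10 for Tagln, -0.28 to 0.28 for Cnn2, -9.24 to 0.73 for Myl9 and -0.21 to 0.014 for Myh9. For irradiated against cocultured, Acta2 was -0.032 on library totals and Myl9 -0.23 without both libraries; omissions gave -0.076 to 0.36 for Acta2, -0.23 to 10.46 for Myl9 and -0.16 to 0.57 for Cnn2. Cnn1, Actg2, Myl9 and Lmod1 have libraries at 0, and irradiated 2, the deepest library, is at 0 for Actg2, Cnn1 and Lmod1.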
